A study of Mus musculus with 8 samples.

Results

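The 10 immediate early genes described here are Fos, Fosb, Junb, Egr1, Egr2, Egr4, Arc, Npas4, Nr4a1 and Dusp1, chosen by symbol from 15288 genes tested in mouse brain. Each was measured by 1 probe, named through its accession, and all 10 passed the filter on dim probes. The brains came from 4 mice homozygous for a mutated Pus1 gene, which encodes a pseudouridine synthase that modifies tRNAs and other RNAs, and from 4 mice with wild-type Pus1. The nature of the mutation is given by the labels only as a knockout. All 8 were aged 14 to 16 weeks and had been backcrossed to C57BL/6J for 5 generations. RNA came from a frozen section across the whole brain, so a sample mixes many regions and cell types. Every array carried a mutant mouse and a wild-type mouse with the same number and sex, called a pair here, in females for pairs 1 and 2 and males for pairs 3 and 4. Cy5 marked the mutant in pairs 1 and 3 and the wild type in pairs 2 and 4. Nothing in the labels says how the mice were housed, handled or killed.

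Immediate early genes are transcribed within minutes of a stimulus without new protein synthesis. In neurons, calcium entry through glutamate receptors and voltage-gated channels activates kinases that act on the transcription factors CREB and SRF, already bound near these genes. Their RNAs are short-lived, and they are widely used as a record of recent neuronal activity. CREB binds the cAMP response element, whose core is TGACG, and SRF binds the CArG box.

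Levels below are normalized log2 intensities of single mice, and ratios are log2 values of mutant over wild type within an array. Well above background were 56.3% of probes in the wild type of pair 2, the lowest channel, and 59.1% to 67.7% in the other channels. All 4 mutants were below all 4 wild types for Pus1, at 6.75 to 7.16 against 9.16 to 10.1, though where the probe lies relative to the mutation is not given. Xist lay above background in 4 of 4 females and 0 males. The neuronal genes Rbfox3, Snap25 and Syt1, chosen as a check of the tissue, were above background in 8 of 8 mice. Their ratios in pair 2 were -1.15, -0.38 and -2.53, and -0.22 to 0.54 in the other pairs. Syt1 had 16.95 in the wild type of pair 2, the highest of 8, and 14.42 in its partner, the lowest. Pair 2 had the widest ratios of all arrays, with an SD of 0.633 over all tested probes against 0.279, 0.395 and 0.329 in pairs 1, 3 and 4.

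Short stretches upstream of 7 of these genes are shown as background, with sites of the kind that CREB and SRF are known to read. Whether these sites bear on the levels in any mouse was not tested. They are from RefSeq, assembly GRCm38.p6, 5′ to 3′ on the gene's strand. Capitals mark TGACG on either strand, the full element TGACGTCA, or a CArG box.
Fos, chr12:85473746-85473845, plus strand: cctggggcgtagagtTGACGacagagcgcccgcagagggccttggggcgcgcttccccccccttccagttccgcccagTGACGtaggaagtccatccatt
Dusp1, chr17:26508579-26508678, minus strand: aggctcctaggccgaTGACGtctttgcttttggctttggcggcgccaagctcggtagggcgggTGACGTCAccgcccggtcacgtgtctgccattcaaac
Egr4, chr6:85513672-85513771, minus strand: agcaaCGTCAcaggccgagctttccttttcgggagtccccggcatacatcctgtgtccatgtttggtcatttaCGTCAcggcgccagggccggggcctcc
Junb, chr8:84978795-84978894, minus strand: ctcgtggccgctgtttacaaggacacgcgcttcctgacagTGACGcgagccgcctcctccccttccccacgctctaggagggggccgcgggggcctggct
Egr2, chr10:67537797-67537818, plus strand: CCATATATGGgcagcgaCGTCA
Npas4, chr19:4990136-4990150, minus strand: CGTCAcgggaTGACG
Nr4a1, chr15:101266613-101266637, plus strand: CGTCAatggaaccccgcgtgCGTCA

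Windows of 250 bases before an annotated start were read for 8 members, including Fosb, and not used here for Egr1 and Arc. TGACG occurred on either strand in 8 of 8, in the case of Egr2 in 3 of its 5 windows, against 17.8% of 32815 windows of the same length. The full TGACGTCA lay upstream of Dusp1 alone, at position -143 from its start, and in 1.55% of all windows. A CArG box was found for Egr2 alone, and in 1.47% of all windows. These matches overlap where TGACG is part of TGACGTCA. A match says only that the letters are present, and a missing match says nothing about sequence outside the 250 bases read.

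The question for these genes was which mouse of pair 2 gave that array its low ratios. The wild-type mouse of pair 2 was the highest of the 8 mice for 10 of 10 members, a position it held for 23.9% of all tested genes. It exceeded the next highest mouse by more than 1 log2 unit for 7 members, against 0.543% of genes. Above the median of the 6 mice of pairs 1, 3 and 4 it stood 1.38 (Fosb) to 3.38 (Arc) log2 units higher, which is 2.6-fold to 10.4-fold. The mutant mouse of pair 2 lay inside the range of those 6 mice for 6 members, a position not counted over all genes. It was the lowest of all 8 for the other 4, which were Egr1, Egr2, Egr4 and Nr4a1, against 12.3% of genes. No p-value is given, since each is a single mouse.

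**Figure D1:**
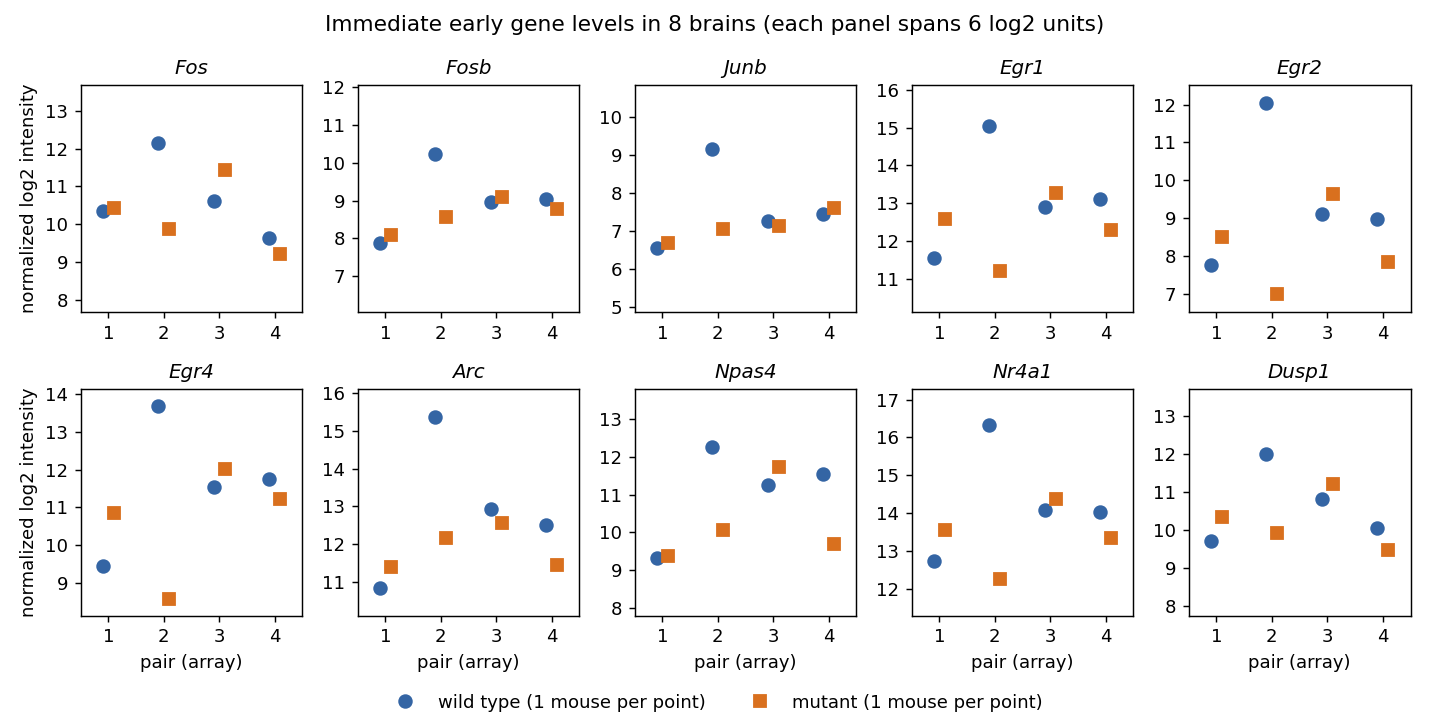
Normalized log2 intensity (vertical axis) of each immediate early gene in the wild-type (circles) and mutant (squares) mouse of each pair (horizontal axis), 1 mouse per point and 6 log2 units per panel. The wild-type mouse of pair 2 is the highest point in 10 of 10 panels, and the mutant mouse of pair 2 is the lowest for Egr1, Egr2, Egr4 and Nr4a1.

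Fos, Fosb and Junb encode subunits of AP-1, a dimeric transcription factor that carries the early response to later target genes. Fos had levels of 10.34, 12.15, 10.61 and 9.63 in wild types 1 to 4 and 10.42, 9.88, 11.42 and 9.21 in mutants 1 to 4. The wild-type mouse of pair 2 was highest, mutant 3 came next, and both mice of pair 4 were lowest, while the genotypes overlapped. The ratios for Fos were 0.08, -2.27, 0.81 and -0.42 in pairs 1 to 4, a mean of -0.45 ± 1.31 (SD, n = 4 pairs, adjusted p = 0.858 in limma). Fos was printed on 10 spots per array, which measures the spread between spots of 1 hybridization only. The SD of its ratio over the 9 or 10 spots kept was 0.065, 0.08, 0.127 and 0.111 in pairs 1 to 4. In pair 2 its 10 spots ranged from -2.399 to -2.13.

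Fosb, whose splice form ΔFosB accumulates in neurons after repeated stimulation, had levels of 7.87, 10.24, 8.95 and 9.04 in wild type and 8.08, 8.56, 9.10 and 8.78 in mutant mice. Apart from the wild-type mouse of pair 2, both mice of pair 1 were the lowest and the others lay close together. Its ratios were 0.22, -1.68, 0.14 and -0.26 (mean -0.39 ± 0.88, adjusted p = 0.846 in limma). Junb was dim, with 6.55, 9.16, 7.26 and 7.44 in wild type and 6.68, 7.04, 7.13 and 7.59 in mutant mice. It was not well above background in either mouse of pair 1. Only the wild-type mouse of pair 2 stood clear of the rest. The Junb ratios were 0.13, -2.12, -0.13 and 0.15 (mean -0.49 ± 1.09, adjusted p = 0.866 in limma), and the scanner software's ratio in pair 2 was -3.22.

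Egr1, Egr2 and Egr4 encode zinc finger transcription factors of the early growth response family. Egr1, used as a marker of activity in many brain regions, had levels of 11.54, 15.03, 12.91 and 13.10 in wild types 1 to 4 and 12.58, 11.22, 13.26 and 12.30 in mutants 1 to 4. Here the mice of pair 2 formed both ends of the range. The ratios were 1.04, -3.81, 0.35 and -0.79 (mean -0.80 ± 2.14, adjusted p = 0.844 in limma).

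Egr2, which is also known for its role in myelinating Schwann cells and hindbrain patterning, had 7.77, 12.04, 9.12 and 8.99 in wild type and 8.51, 7.0, 9.64 and 7.85 in mutant mice. The distance of the wild-type mouse of pair 2 from the next mouse was 2.39. Its ratios were 0.74, -5.04, 0.53 and -1.15 (mean -1.23 ± 2.68, adjusted p = 0.818 in limma). Egr2 was thus 32.8-fold lower in the mutant of pair 2 than in its partner, and the scanner software's ratio there was -6.86. In that mutant its brightness was 83.5 beside a background of 51. That is dim, though marked well above background, and limits the size of this ratio. Egr4 had 9.45, 13.68, 11.53 and 11.76 in wild type and 10.86, 8.59, 12.01 and 11.23 in mutant mice. Wild type 1 and the mutant of pair 2 were both far below the rest. Egr4 and Egr2 had the lowest ratios of the members in pair 2, and their order turned with the scanner software's ratio (-5.43 for Egr4). The Egr4 ratios were 1.41, -5.09, 0.48 and -0.53 in pairs 1 to 4 (mean -0.93 ± 2.88, adjusted p = 0.869 in limma).

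Nr4a1, an orphan nuclear receptor induced by calcium and cAMP, followed Egr1 closely. It had 12.73, 16.32, 14.07 and 14.03 in wild type and 13.55, 12.25, 14.38 and 13.34 in mutant mice, and ratios of 0.83, -4.08, 0.31 and -0.68 (mean -0.90 ± 2.21, adjusted p = 0.839 in limma). Both ends of its range were again the mice of pair 2. Over the 7 mice other than the wild type of pair 2, Pearson's r between Egr1 and Nr4a1 was 0.992, and Egr1 had 0.954 with Egr2 and 0.972 with Egr4. These are descriptions over 7 mice that share arrays in pairs. By the same measure Fos had 0.871 with Dusp1, 0.053 with Fosb and -0.445 with Junb. Of the 45 pairs of members, Egr1 with Nr4a1 was the highest and Fos with Junb the lowest. Junb was not well above background in either mouse of pair 1, which limits its r. The 45 pairs had a median r of 0.834 over 8 mice and 0.641 without the wild type of pair 2. Apart from that mouse, some members therefore rose and fell with each other across mice and others did not.

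Npas4, a transcription factor that in neurons responds selectively to calcium influx and regulates inhibitory synapses, had levels of 9.33, 12.26, 11.24 and 11.55 in wild type and 9.38, 10.05, 11.72 and 9.69 in mutant mice. It was the member for which the wild-type mouse of pair 2 exceeded the next mouse least, by 0.54, and both mice of pair 1 were at the bottom. Its ratios were 0.05, -2.21, 0.48 and -1.86 (mean -0.88 ± 1.35). Npas4 had the lowest adjusted p of the members, 0.452 in limma, because the fit takes its spread from pairs that share a dye orientation and these pairs were close for this gene.

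Arc encodes a protein that moves to active synapses and regulates the removal of AMPA-type glutamate receptors. Its levels were 10.85, 15.37, 12.92 and 12.51 in wild type and 11.40, 12.18, 12.57 and 11.46 in mutant mice. The mutant of pair 2 was in the middle of the range, 0.20 above the median of the 6 mice, while its wild-type partner was 3.38 above that median. The Arc ratios were 0.54, -3.18, -0.35 and -1.05 (mean -1.01 ± 1.59, adjusted p = 0.811 in limma).

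Dusp1 encodes a phosphatase that inactivates MAP kinases and so limits the signal that induces these genes. It had 9.70, 12, 10.82 and 10.06 in wild type and 10.34, 9.92, 11.22 and 9.46 in mutant mice. As for Fos and most other members, mutant 3 came closest to the wild-type mouse of pair 2. Ratios were 0.64, -2.08, 0.40 and -0.60 (mean -0.41 ± 1.23, adjusted p = 0.846 in limma).

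**Figure D2:**
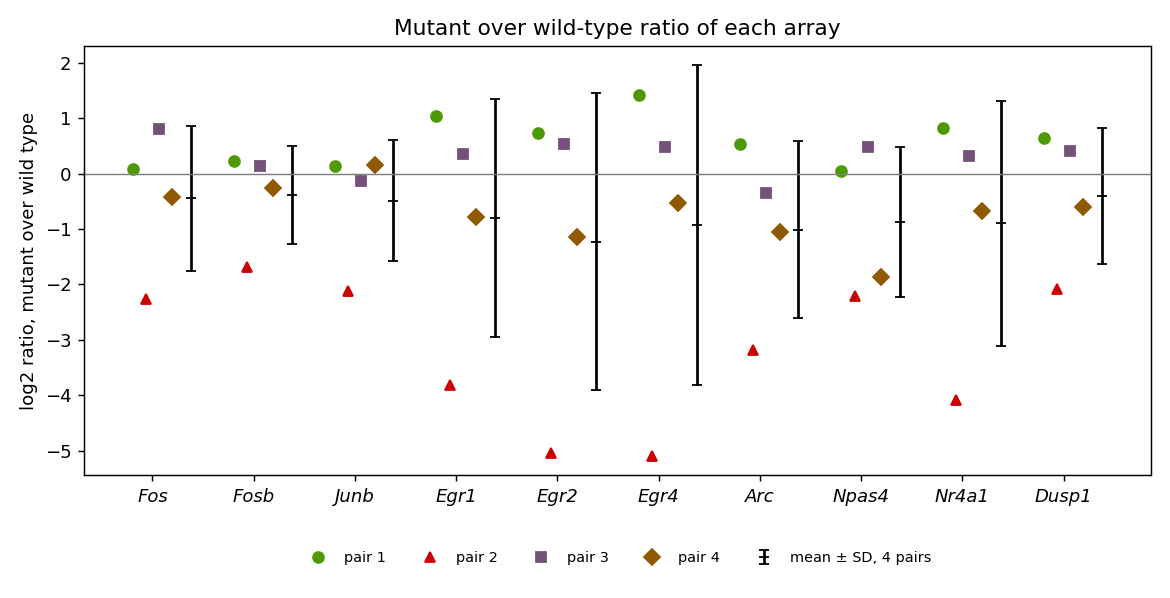
Log2 ratio of mutant over wild type (vertical axis) for each immediate early gene (horizontal axis) in the 4 pairs, with the mean ± SD of the pairs as a bar. Pair 2 is the lowest point for 10 of 10 genes, from -1.68 to -5.09, and pairs 1 and 3 lie mostly above 0.

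Between genotypes, 0 of the 10 members passed an adjusted p of 0.05 in limma, where 0.00901% of all tested probes did. Arc and Npas4 had an unadjusted p below 0.05, and 6.05% of all tested probes did. No member had the same sign in all 4 pairs, which 11.7% of genes had, and for none were the levels of the genotypes separate, against 1.14% of genes. The median of the members was -0.84, beside 0.007 over all tested genes. By pair it was 0.59, -2.73, 0.38 and -0.64. Without pair 2 the plain means of the other 3 pairs had a median of 0.10 over members and ranged from -0.44 (Npas4) to 0.45 (Egr4). The limma fit, which then gives pair 4 more weight through its dye term, had a median of -0.04 and ranged from -0.79 (Npas4) to 0.21 (Egr4), with adjusted p from 0.297 to 0.99. The sign of the median thus depended on that weighting. When only the wild-type mouse of pair 2 was left out and the 7 other mice were fitted as separate channels, the members ranged from -0.65 (Npas4) to 0.03 (Junb). When only the mutant of pair 2 was left out they ranged from -1.35 to -0.47. Both fits ignored which mice shared an array, and neither called a member (adjusted p = 1.0 for each in limma). The same kind of fit with no mouse left out also called 0 members. The absence of calls therefore says nothing about leaving out either mouse, and cannot be set beside the fits of ratios within arrays. Without pair 4, 9 members passed in the lower direction, where 2.8% of all probes passed, in a fit that takes its spread from pairs 1 and 3 alone.

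The smaller differences in the other arrays ran in opposite directions. In pair 1 the mutant was the higher mouse for 10 of 10 members, against 54.1% of genes (Junb was not above background in either mouse), and by more than 1 log2 unit for Egr1 and Egr4, against 0.556% of genes. In pair 2 it was higher for 0 members, against 49.5% of genes, and lower by more than 1 for 10 of 10, against 6.51%. In pair 3 it was higher for 8 members, against 46.8% of genes. In pair 4 it was higher for Junb alone, against 52.1% of genes, and lower by more than 1 for Egr2, Arc and Npas4, against 0.674%. For 8 members the mutant was higher in pairs 1 and 3 and lower in pairs 2 and 4, a pattern of 12.6% of genes. That division coincides with dye orientation, and in the ratios the dye and another difference between those sets of pairs cannot be told apart.

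The mice of pair 2 were also set against mice of the same dye, genotype or sex. Labelled with Cy5, the wild-type mouse of pair 2 was 1.38 (Npas4) to 3.21 (Arc) log2 units above the mean of the 3 other mice labelled with Cy5. It was 1.56 (Npas4) to 3.41 (Egr2) above the mean of the 3 other wild types. Over the mean of the pair 1 mice, the other females outside its own array, it was 1.77 (Fos) to 4.24 (Arc) higher. The mutant of pair 2, labelled with Cy3, was below the mean of the 3 other Cy3 mice for Egr4 (-2.15), Egr2 (-1.24), Nr4a1 (-1.13) and Egr1 (-1.03). For the other 6 members it was -0.17 (Fos) to 0.44 (Arc) from that mean. Against the mean of the 3 other mutants it was lower for 9 members, from -2.78 (Egr4) to -0.09 (Fosb and Junb), and 0.38 higher for Arc. Against the pair 1 mice it was higher for Arc (1.06), Npas4 (0.70), Fosb (0.59) and Junb (0.42), and lower for the other 6, from -1.57 (Egr4) to -0.10 (Dusp1). The split of the members into these 4 and 6 was made after their values were seen.

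**Figure D3:**
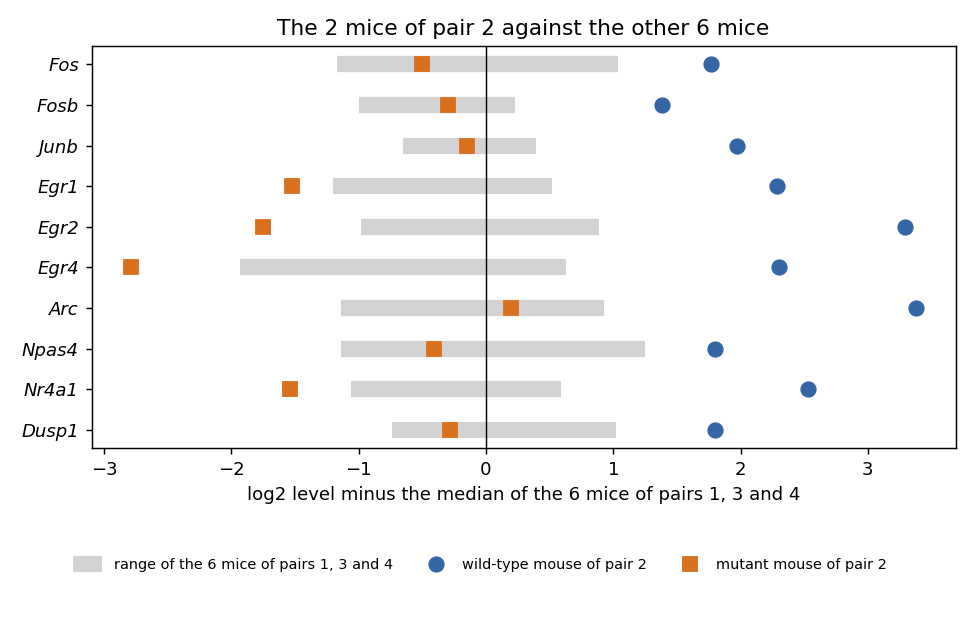
Log2 level of the wild-type (circles) and mutant (squares) mouse of pair 2 minus the median of the 6 mice of pairs 1, 3 and 4 (horizontal axis) for each immediate early gene, with the range of those 6 mice as a grey bar. Circles lie right of the bar for 10 of 10 genes, and squares lie inside it for 6 and left of it for Egr1, Egr2, Egr4 and Nr4a1.

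A related measure is which mouse lay farthest from the median of the 8. For 9 members it was the wild-type mouse of pair 2, on the high side, against 15.2% of all tested genes. For Egr4 it was the mutant of pair 2, on the low side, against 5.8% of genes. With the wild-type mouse of pair 2 set aside, the mutant of pair 2 was the farthest of the 7 others for 4 members, on the low side, against 7.67% of genes. Across all genes both mice of pair 2 were often the farthest, and the mutant was so on the high side for 15.5%. For no member was it so on the high side.

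Among the 6 mice of the other arrays, the members also spread widely, by 1.04 (Junb) to 2.55 (Egr4) log2 units. By the median over members of the distance from each gene's own median, wild type 1 was lowest at -1.03. Mutant 4 (-0.59), mutant 2 (-0.55) and mutant 1 (-0.37) followed, then wild type 4 (0.24), wild type 3 (0.25) and mutant 3 (0.61), with wild type 2 at 2.13. The range over members within each of these mice overlapped its neighbours in this order, except for wild type 2, whose lowest member (1.38) was above the highest of any other mouse (1.07, mutant 3).

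Other genes of the same rapid response showed the same mouse. Of 35 listed genes that are no members, 31 were tested, and the wild-type mouse of pair 2 was the highest of 8 for 23 of them. Their median there was 1.06 above the 6 mice of the other pairs, and the mutant of pair 2 was at -0.09. The 3 brightest differed among themselves. Per1, a clock gene also induced by CREB, had 14.54 in the wild type of pair 2 and 12.87 to 13.74 elsewhere. Jund, the steadily expressed relative of Junb, had 14.09 against 13.69 to 14.04. Gadd45g, a stress and growth arrest gene, had 13.24 against 13.19 to 13.75. Of genes picked after their values were seen, the polo-like kinase Plk2 was 2.18, the matricellular gene Ccn1 2.67 and the synaptic scaffold gene Homer1 1.47 above the 6 mice. Atf3, also a target of the stress factor ATF4, was 0.65 above, with the mutant of pair 2 at 0.81. No gene of this list was called between genotypes.

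Later targets and brakes had smaller medians. For 21 genes of the delayed response, which carry growth factors and neuropeptide processing enzymes, the wild type of pair 2 was highest for 11 and lowest for 2, with a median of 0.71 above the 6 mice. Vgf, a secreted neuropeptide precursor, was 1.02 above. Scg2, a secretogranin, was at -0.27 and Penk, the proenkephalin gene of striatal neurons, at -1.17. Among 17 negative regulators, that is phosphatases, Sprouty proteins and related genes, it was highest for 12, with a median of 0.72. Rgs4, a brake on G protein signalling, stood 1.80 above, Nab2, a co-repressor of Egr proteins, 0.76, and the phosphatase gene Dusp8 0.20. In the mutant of pair 2, Nab2 was at -0.99, the lowest of 8. The 34 upstream regulators, that is kinases, glutamate receptors and the factors acting on these promoters, had a median of 0.27 in the wild type and -0.31 in the mutant. Their brightest genes were Camk2b (0.10 and -1.0 in these mice), the coactivator gene Crebbp (-0.59 and -0.72) and Elk1, an SRF partner (0.24 and -0.48). No gene of these lists was called between genotypes.

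Markers of brain regions and cell types differed in the same mice. Of 15 tested markers of cortical excitatory neurons, which are a main site of immediate early gene expression, 13 were highest in the wild type of pair 2. Their median there was 2.01 above the 6 mice, and in the mutant of pair 2 it was -1.29. In that mutant, 3 of the 15 were above the median of the 6 mice. Lamp5, picked after its values were seen, was the highest of 8 there, at 2.32 above. Nrgn, a postsynaptic calmodulin-binding protein, had 15.24 in that wild type, 13.31 in that mutant and 11.87 to 14.60 in the others. Icam5, an adhesion protein of forebrain neurons, had 14.78, 10.90 and 9.85 to 14.54. Neurod2, a neuronal transcription factor, had 13.70 and 11.65, and 12.99 to 13.93 in the others. The summed intensity of this list was 140863 in that wild type, the highest of its genotype, where the lowest was 18252, and 23735 to 78361 in mutants. Of these 15 markers, 13 were above background in all 8 mice, and Camk2a and Mef2c are shared with the upstream regulators. Their part in the immediate early gene levels was not tested. In a mixed tissue, fewer cells of a type and less RNA per cell cannot be told apart.

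Markers of other regions also differed between mice. Cerebellar markers had a median of -2.88 relative to the 6 mice in the wild type of pair 2, and 0 of 11 were above them. Pcp2 of Purkinje cells had 11.31 there and Zic1 10.71, each the lowest of 8, and Pvalb, also an inhibitory neuron marker, had 14.11. Cerebellar sums ran from 29004, in that mouse, to 299263 in wild type and from 65107 to 403265 in mutants. The mutant of pair 2 was also low, with a median of -2.33. Pair 4 was low as well. Against each gene's median over 8 mice, wild types 2 and 4 had -2.40 and -2.37, and mutants 2 and 4 had -1.74 and -0.61. The mice of pairs 1 and 3 had 0.46 to 1.55. Thalamic markers had -2.27 in the wild type and -1.0 in the mutant of pair 2, and markers of the hippocampus and dentate gyrus 1.46 and -0.48. With each gene's median over 8 mice as the reference, the hippocampal list had 1.40 in wild type 2. It had 1.24 in wild type 4 and 1.67 in mutant 4. Oligodendrocyte markers were highest in the mutant of pair 2 for 12 of 13, with a median of 1.07, and -0.45 in the wild type. Mal, a myelin protein, was 0.88 above the 6 mice in that mutant, and Ermn was the exception at -0.70. Oligodendrocyte sums were 336729 to 517326 in wild type and 314267 to 863775 in mutants, the highest being the mutant of pair 2. Inhibitory neuron markers had 0.64 and -0.78, and striatal markers -0.34 and -0.62. Astrocyte markers had -0.24 and 0.36, microglia markers 0.52 and 0.37, and endothelial and mural markers -0.09 and 0.09. The other lists had -1.24 and -0.54 for hypothalamic neurons, 0.14 and 0.90 for oligodendrocyte precursors, -0.57 and 0.28 for ependymal cells, -0.84 and 0.92 for choroid plexus and -0.02 and 0.24 for blood cells. Their part was not tested either.

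The 3 brightest genes of these further lists are given as distances from the 6 mice, the wild type of pair 2 first and its partner second. Among neurons, Cck, a peptide gene of inhibitory and some excitatory cells, had 1.34 and -2.99, while Lhx6 had -1.25 and -1.30 and the GABA transporter gene Slc32a1 -0.43 and 0.72. Striatal Ppp1r1b had -0.81 and -1.29 and Tac1 -1.16 and -0.21. Hippocampal Spink8 had 2.87 and -0.82, Cpne7 1.40 and -0.48 and Wfs1 0.16 and -0.52. Of these hippocampal genes, Spink8 alone was highest of 8 in the wild type, and Cpne7 alone was lowest of 8 in the mutant. Thalamic Prkcd had -2.59 and -1.73, Rora -0.41 and -1.02 and Slc17a6 -1.38 and 0.67. Hypothalamic Hcrt had -3.42 and -2.76, Oxt -1.97 and -1.26 and Pomc -0.31 and 0.76. For glia, S100b had -1.32 and 0.40, Acsbg1 -0.45 and 0.59, Aldh1l1 0.16 and 0.22, Sox10 0.16 and 1.44, Olig1 -0.25 and 0.90 and Gpr17 0.32 and 0.27. All 6 of these named glial genes were above the median of the 6 mice in the mutant, but the astrocyte genes Slc1a3 (-1.75) and Sox9 (-0.16), picked after their values were seen, were the lowest of 8 there. Microglial Csf1r had 0.52 and 0.30, Itgam -0.81 and -0.86 and Tyrobp 0.41 and 0.40. Itgam went against its list, with levels of 16.95 to 17.53 in pairs 1 and 3 and 16.35 to 16.55 in pairs 2 and 4. Lhx6 was divided in the same way, at 16.08 to 16.78 and 14.89 to 15.07. How well these bright probes stand for a cell type was not tested. Endothelial Cldn5 had -0.31 and 0.32, Flt1 -0.53 and 0.08 and Ly6c1 -0.55 and 0.07. Ependymal Foxj1 had -0.95 and 1.13, Mia -0.57 and 0.76 and Ccdc153 -0.80 and 0.20. Choroid plexus Ttr had -2.62 and 1.19, Folr1 -0.87 and 0.47 and Clic6 -2.15 and -0.44. In blood, Hba-a1 had 0.01 and 0.45, Alas2 -0.45 and 0.08 and Cd3e 0.46 and 0.40. No gene of any marker list was called between genotypes.

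Relative to each gene's median over 8 mice, excitatory markers and immediate early genes were both highest in wild type 2 (1.94 and 2.13) and both lowest in wild type 1 (-1.60 and -1.03). Wild type 4 had excitatory markers at 0.86 and immediate early genes at 0.24. Mutant 3 had -0.09 and 0.61. Mutant 1 had -1.39 and -0.37, mutant 2 had -1.29 and -0.55, wild type 3 had 0.09 and 0.25, and mutant 4 had 0.36 and -0.59. These are values of single mice and carry no test.

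**Figure D4:**
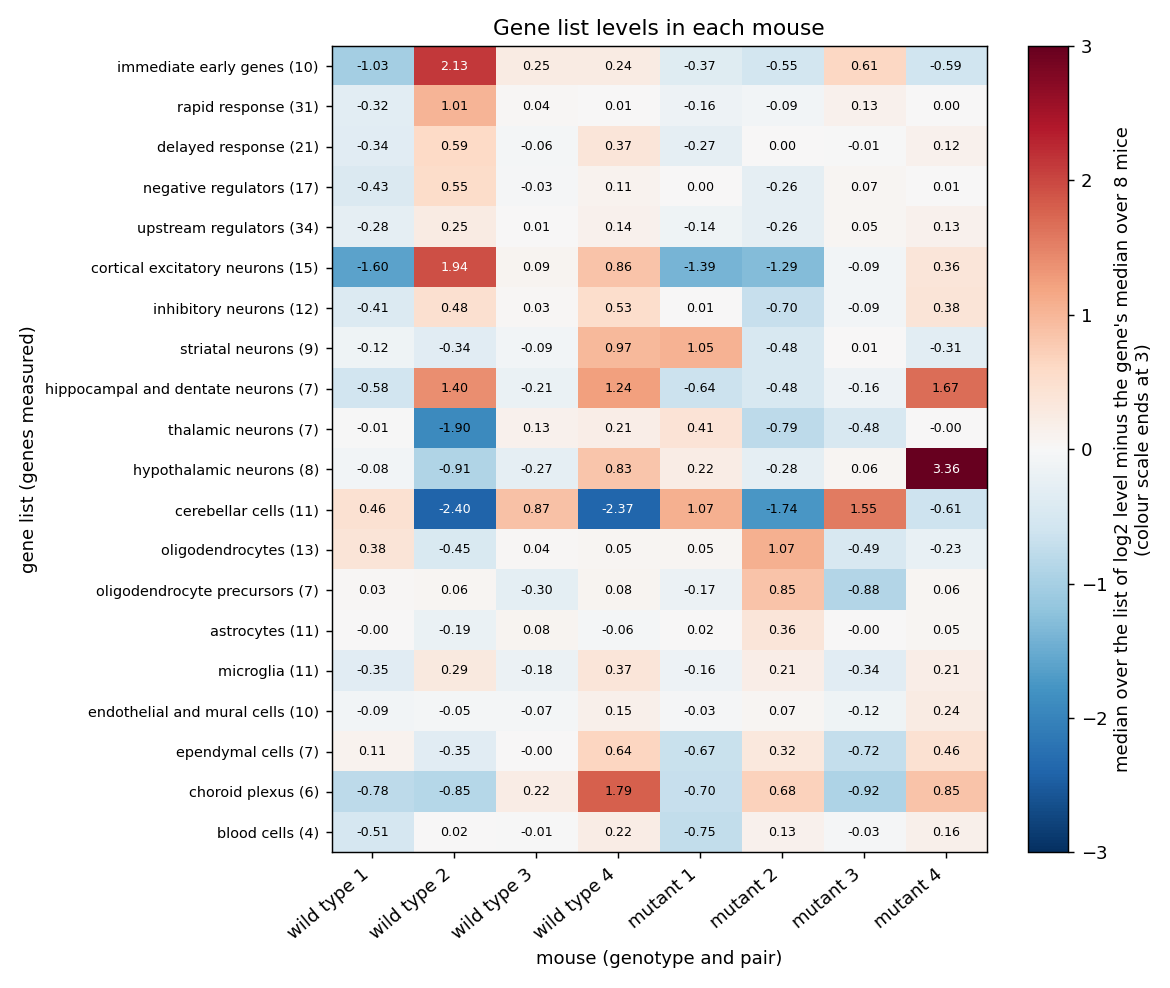
Median over each gene list of the log2 level minus the gene's own median over 8 mice (colour and printed value; colour ends at 3), for the immediate early genes, 4 related lists and 15 lists of cell or region markers (rows) in each mouse (columns). The wild type of pair 2 has 2.13 for immediate early genes and 1.94 for excitatory neuron markers, and -2.40 for cerebellar markers. Wild type 4 has -2.37 for cerebellar markers.

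Genes with the most similar pattern were found among 7064 genes with an SD of at least 0.3 over the 8 mice, by Pearson's r with the members' mean. They were the zinc finger gene Zfp296 (r = 0.983), Sertad1, a transcriptional coregulator (0.976), the nuclear receptor gene Pparg (0.97), Osbp2, an oxysterol-binding protein (0.97), Hspb3, a small heat shock protein (0.967), Slc23a3 (0.966), the centromere protein gene Incenp (0.963) and the immediate early gene Ier2 (0.96). Over the 7 mice without the wild type of pair 2 these had r of 0.984, 0.929, 0.94, 0.911, 0.907, 0.89, 0.907 and 0.889 in the same order. Most opposed were Tdrd5 (r = -0.979), Arhgap36 (-0.976), the homeobox gene Zfhx3 (-0.973) and Gm5796 (-0.966). Arhgap36 had 7.18 in the wild type of pair 2 and 8.89 to 11.71 in the others. These values of r describe 8 mice that share arrays in pairs, and carry no p.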

How the data were processed

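Scanner images were read by Agilent Feature Extraction (version 10.7.3.1, by the submitters' processing notes). Per the file headers, the spot and background intensity values are median pixel brightness, and the processed intensity was background-subtracted and dye-normalized within the array. The deposited log10 ratio is Cy5 over Cy3. Other deposited values are 0 or 1 marks per spot. The authors' deposited log2 table has no stated scale in the sources used here and served as an alternative only.

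Here, intensities were corrected with normexp (offset 50), loess-normalized within arrays with limma 3.58.1 in R 4.3.3, and averaged per probe without outlier spots. The level of each mouse came from its channel once average intensities had been equalized between arrays (Aquantile), and may hold dye bias. Testing required a probe to be marked as well above background in 3 or more of 4 mice of either genotype, which gave 33307 probes, and a gene takes its brightest tested probe. Names came from a RefSeq table (27509 of 55681 probes). Ratios were fitted in limma with a dye term, leaving 2 residual degrees of freedom, with Benjamini-Hochberg adjustment over all tested probes. The within-array ratio blocks by pair, which is a shared array and not a shared litter as far as the labels say. The fit was tested on simulated data. All arrays were on 1 slide, so no slide block was possible. The members and lists were chosen with earlier results of these data known. Besides all members, the text names the 3 brightest genes of each list (1 is not reported here) and the genes most and least like the members, and says where a gene was chosen after its values were seen.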

Additional observations from a re-analysis of the deposited data

How the results depend on the processing

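The wild-type mouse of pair 2 was highest for 10 of 10 members with processed signals scaled by quantiles or by the 75th percentile, and for 9 of 10 with levels centred on each dye. The filters cannot change a member's level, and the authors' table gave the same distances as the quantile-scaled signals, so neither is a separate check. Its median distance above the other 6 mice was 1.82 to 2.37 over all settings. It was the farthest of the 8 mice for 8 to 9 members. The mutant of pair 2 was lowest for Egr1, Egr2, Egr4 and Nr4a1 under both of the former scalings, but for Egr4 alone when centred on each dye. It was the farthest mouse for 0 members after that centring, which takes each mouse's own value into the mean of its dye, and for 4 without the wild type of pair 2, against 1 in the main setting. The median of the 10 members ranged from -1.3 (without replicate 4) to -0.04 (without replicate 2).

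The count of called members was 0 in each setting except without replicate 4, so leaving out a replicate gave 0 to 9. Leaving out replicates, the log2 ratio of Egr4 ranged from -2.07 to 0.21, that of Fos from -0.91 to 0.01 and that of Junb from -1.06 to 0.08, each turning positive without replicate 2. Junb was also positive, at 0.03, without the wild-type mouse of pair 2, an alternative chosen after seeing the data, as was leaving out the mutant. The other members stayed negative in these fits. As plain means of pairs 1, 3 and 4, which weight pairs equally, 8 of 10 members were positive. The 3 probes called over the whole array became 0 in the authors' table, with a sex term, and with the log ratio as deposited by the scanner. They became 9 with an intensity trend, 1 in separate channels with no replicate block and 10 with the array as a random replicate block. Leaving out a replicate gave 0 to 933, with 10 without replicate 2. The separate channels with no replicate block gave 0 when only the wild type or only the mutant of pair 2 was left out. The cause was not tested. A slide block was not run, since 1 slide held all arrays, and averaging probes of a gene changed nothing, since each member had 1. With no replicate block, 0 members were called (adjusted p = 1.0 in limma). Signal over background limits Junb, which was above background in 6 of 8 mice, and Egr2 in the mutant of pair 2, where it was dim. The number of mice, 8, limits every value.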
